A study of Mus musculus with 3 samples.

Results

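The genes described here encode extracellular matrix proteins and the integrins that bind them. They were taken by symbol from the array annotation: every collagen chain (Col, digits, a, digits), every laminin chain (Lama, Lamb or Lamc with a digit), Nid1, Nid2, Fn1, Hspg2 and Sparc as matrix genes, and every symbol starting with Itga or Itgb as integrin genes. The rule found 89 of 22180 genes, 59 matrix genes (44 collagens, 10 laminin chains and 5 others) and 30 integrin genes. Of the integrin genes, 26 encode integrin subunits, 17 alpha and 9 beta. The other 4 carry an integrin-like name and are no subunits, namely Itgb1bp1, Itgb1bp2, Itgb3bp and Itgbl1. The markers Nid1, Fn1, Lama1, Lamb1 and Itga5 were above background on all 3 arrays.

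Total RNA from 3 cultures of mouse pluripotent stem cells was measured on Affymetrix Mouse Gene 2.0 ST arrays, with 1 array per culture. The mEpiSCs, mouse epiblast stem cells, are a model of the epiblast after implantation and are called primed. They had been induced from EB3 mouse embryonic stem cells (mESCs), an established line. Their N2B27 medium held 12 ng/ml bFGF and 20 ng/ml Activin A, which signals through SMAD proteins. The Activin+PD culture was EB3 mESCs kept for 64 days in N2B27 with 20 ng/ml Activin A and 2 µM PD0325901, an inhibitor of MEK that blocks activation of ERK. The 2i culture was EB3 mESCs kept for 34 days in N2B27 with 2 µM PD0325901 and 2 µM CHIR99021, an inhibitor of GSK3 that stabilises beta-catenin. The mESC cultures therefore share the MEK inhibitor, the mEpiSC and Activin+PD cultures share Activin A, and all 3 share the parental line. The 2i culture alone held CHIR99021. Where both Activin A cultures differ from 2i, Activin A and the lack of CHIR99021 therefore cannot be told apart. The time for which mEpiSCs were kept, the coating of the dishes and any use of feeder cells are not given in the sources used here.

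Values are log2 intensities, and a difference is the log2 intensity of the first-named culture minus that of the second, so that 1 is a 2-fold difference. With 1 array per culture nothing could be tested, and "higher" and "lower" describe these 3 arrays. Background was set on each array at the 95th percentile of 1405 probe sets for odorant and pheromone receptors, genes taken to be silent here, a log2 intensity of 5.57 for mEpiSC, 5.50 for Activin+PD and 5.59 for 2i, and 60.2% to 62.1% of all genes lay above it. A gene was compared where the brighter of 2 arrays was above its background. Where only the brighter array was, the difference is given as a bound ("at least"). As a guide to measurement error, the disagreement between different probe sets of one gene corresponded to a standard deviation of 0.33 (512 genes) in mEpiSC minus 2i, 0.30 (527 genes) for mEpiSC minus Activin+PD and 0.24 (523 genes) for Activin+PD minus 2i. That spread holds no variation between cultures. Levels are compared between arrays for 1 probe set and not between genes, since probe sets differ in how brightly they respond.

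The extracellular matrix of the early embryo is mainly basement membrane, a sheet in which a laminin network and a collagen IV network are joined by nidogens and the proteoglycan perlecan. A laminin is a trimer of 1 alpha, 1 beta and 1 gamma chain. Fibronectin is a soluble glycoprotein that cells assemble into fibrils through integrins. An integrin is a heterodimer of an alpha and a beta subunit that spans the membrane and ties the matrix outside to actin inside through talin, vinculin and their partners. In the embryo, the epiblast rests on a basement membrane whose laminins come in large part from the neighbouring endoderm.

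Across the 3 arrays, 12 members differed at least 2-fold between their highest and lowest array, of 67 whose highest array was above background. That is 17.9%, against 12% of 14509 genes of the whole array taken the same way. They were 5 of 46 matrix genes (Nid1, Nid2, Fn1, Lama1 and Lamb1) and 7 of 21 integrin genes (Itga1, Itga3, Itga5, Itga8, Itgb1, Itgb3 and Itgb8). None was among the 33 collagens compared, where the largest span over the arrays was 0.84, that of Col4a1. Of the 89 members, 13 matrix genes and 9 integrin genes were below background on all 3 arrays, and 41 matrix genes and 16 integrin genes were above it on all 3.

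In mEpiSCs against 2i mESCs, 3 of 45 matrix genes compared were lower by 2-fold or more and 1 was higher, and 5 of 21 integrin genes compared were higher and 0 lower. Over all 14223 genes compared, 4.53% were higher and 4.96% lower by that measure. In mEpiSCs against Activin+PD mESCs, 3 of 46 matrix genes were lower and 0 higher, and 3 of 20 integrin genes were higher and 2 lower, beside 3.59% of genes higher and 5.37% lower over the array. In Activin+PD against 2i mESCs, 1 matrix gene was higher and 1 lower of 45, and 1 of 18 integrin genes was higher and 0 lower, beside 1.38% higher and 0.82% lower. Itga1, Itga8 and Itgb8 were above background in mEpiSC alone, so they entered only through that array and could be called only higher. They are among the 5 integrin genes higher than in 2i and are all 3 of those higher than in Activin+PD. The 3 comparisons share arrays, so their counts are not independent. The list medians, over dim and bright genes alike, were 0.01 for matrix genes and 0.05 for integrin genes against 0.03 in mEpiSC minus 2i, 0.05 and 0.06 against 0.04 for mEpiSC minus Activin+PD, and 0.0015 and 0.028 against -0.0059 for Activin+PD minus 2i. The matrix medians are those of a list in which 32 or 33 collagens, none of them 2-fold apart, stand beside 13 other genes. Their median was -0.28 for mEpiSC minus 2i, -0.46 with Activin+PD in place of 2i, and 0.12 for Activin+PD minus 2i. The integrin medians also depend on which genes enter. Over the integrin subunits alone the median was 0.10 for mEpiSC minus 2i (18 genes), 0.03 with Activin+PD in place of 2i (17 genes) and 0.30 for Activin+PD minus 2i (15 genes). A background at the 99th percentile keeps the brighter integrin genes, and was applied to all of them, those that are no subunits included. The median of these integrin genes was then 0.48 (11 genes), 0.35 (13 genes) and 0.48 (10 genes) in the same order. The medians of all genes were 0.03, 0.03 and -0.00089. These integrin medians are therefore not over the same kind of list as those of the subunits alone.

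**Figure D1:**
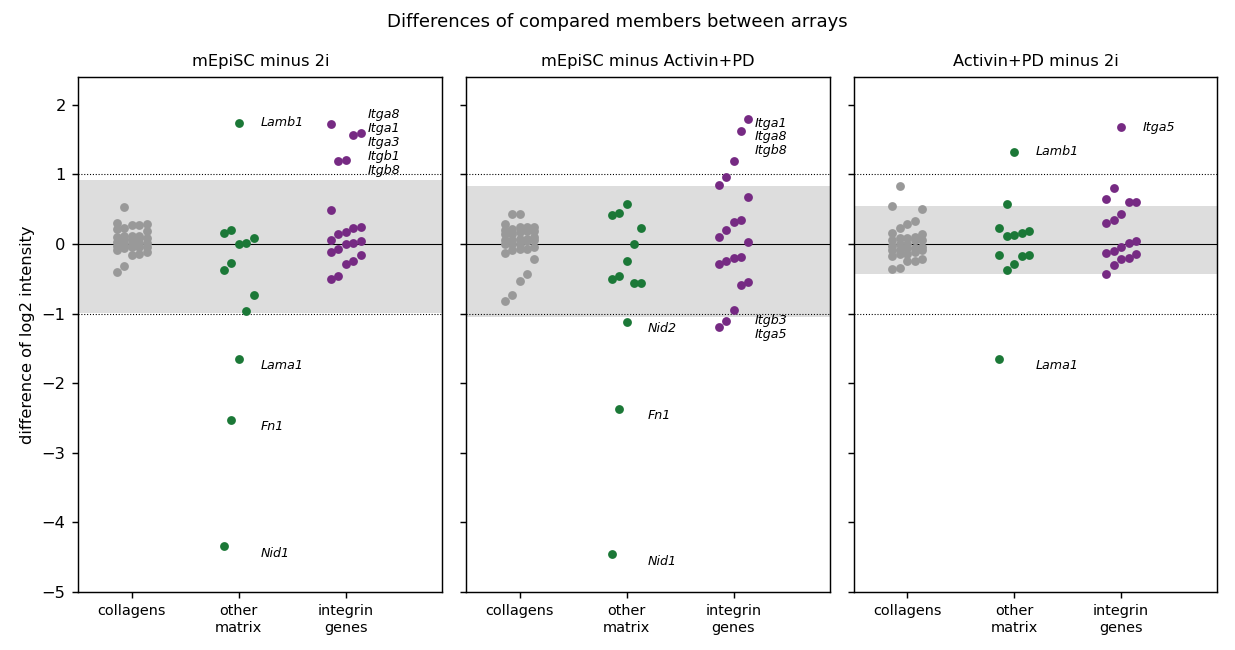
Each point is a member compared between 2 arrays, plotted as the difference of log2 intensity, with collagens, other matrix genes and integrin genes apart. Dotted lines mark 2-fold, the grey band spans the 5th to the 95th percentile of all genes compared, and named points are at least 2-fold apart. No collagen passes a dotted line, and Nid1 lies lowest, at -4.35 and -4.46, where mEpiSC is compared with either mESC culture.

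Among the laminins, the alpha1 chain gene was lower and the beta1 chain gene higher in both Activin A cultures than in 2i, and the gamma1 chain gene was within 2-fold. Lama1 encodes the alpha1 chain, which with beta1 and gamma1 forms the main laminin of the early embryo. Its log2 level was 6.12 in mEpiSC, 6.11 in Activin+PD and 7.77 in 2i. Both cultures with Activin A were thus lower than 2i, by 3.14-fold for mEpiSC and 3.15-fold for Activin+PD, and were level with each other, with a difference of 0.0029. Lama1 ranked 26th from the bottom of 13059 genes in Activin+PD minus 2i, among genes above background on both arrays. Lamb1, which encodes the beta1 chain, stood at 9.47 in mEpiSC, 9.06 in Activin+PD and 7.73 in 2i. Here both Activin A cultures were higher than 2i, by 3.35-fold for mEpiSC and 2.51-fold for Activin+PD, and differed from each other by 0.42. Lamc1, the gamma1 chain that most laminins share, was at 9.42 in mEpiSC, 9.88 in Activin+PD and 9.70 in 2i. Lama5 encodes the alpha5 chain, whose trimer with beta1 and gamma1 supports the growth of pluripotent cells in culture, and stood at 8.77, 8.20 and 8.58 in mEpiSC, Activin+PD and 2i. Its largest difference was 0.58, for mEpiSC minus Activin+PD, somewhat more than the spread between probe sets. Lamb2, the beta2 chain, was lowest in mEpiSC at 6.51, against 7.07 in Activin+PD and 7.24 in 2i. Lama3, Lamb3 and Lamc3 lay between 5.49 and 6.18 on every array, near background, and Lama2 and Lama4 were below it on all 3.

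Nid1 and Fn1 were the matrix genes at least 2-fold lower in mEpiSC than in both mESC cultures, and Nid2 was so against Activin+PD alone. Nid1 encodes nidogen-1, the linker between the laminin and collagen IV networks. Its log2 level was 6.29 in mEpiSC, against 10.75 in Activin+PD and 10.64 in 2i. It was 22.0-fold lower in mEpiSC than in Activin+PD and 20.3-fold lower than in 2i, and it ranked 4th from the bottom in both comparisons, of 13043 and 12809 genes above background on both arrays. A second Nid1 probe set read 6.11 in mEpiSC, 9.69 in Activin+PD and 9.71 in 2i, differences of -3.58 and -3.60. Between the mESC cultures Nid1 differed by 0.12 on the first probe set and by -0.015 on the second. Nid2, which encodes nidogen-2, a protein of the same kind, showed a smaller difference in the same direction. It stood at 9.73 in mEpiSC, 10.84 in Activin+PD and 10.68 in 2i, which is 2.17-fold lower than in Activin+PD and just within 2-fold of 2i, at -0.96. Hspg2, which encodes perlecan, was at 8.41 in mEpiSC, 8.91 in Activin+PD and 8.78 in 2i, differences of -0.51 and -0.38.

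Fn1 encodes fibronectin, the ligand of the integrin of Itga5 and Itgb1. It was at 9.17 in mEpiSC, against 11.53 in Activin+PD and 11.69 in 2i. That is 5.16-fold lower than in Activin+PD and 5.75-fold lower than in 2i, while the mESC cultures differed by -0.15, less than the spread between probe sets. Sparc, a secreted collagen-binding protein of basement membranes, read 9.21 in mEpiSC, 9.77 in Activin+PD and 9.20 in 2i, so that Activin+PD stood 0.57 above 2i.

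Collagen IV genes come in head-to-head pairs that share the sequence between their starts. Col4a1 and Col4a2, whose chains make up the collagen IV of nearly all basement membranes, were highest in Activin+PD and lowest in 2i. Col4a1 read 6.78 in mEpiSC, 7.31 in Activin+PD and 6.48 in 2i. Col4a2 read 6.04, 6.46 and 5.92 in the same order. The differences for Activin+PD minus 2i were 0.84 and 0.54 and those of mEpiSC from 2i were 0.31 and 0.12, so both genes kept the same order of cultures, without reaching 2-fold. Col4a4, Col4a5 and Col4a6 were between 5.33 and 5.74, at the edge of background, and Col4a3 was below it on all 3 arrays. Col18a1, a basement membrane collagen with a proteoglycan part, read 7.64 in mEpiSC, 8.46 in Activin+PD and 7.96 in 2i. Its difference for mEpiSC minus Activin+PD was -0.81.

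**Figure D2:**
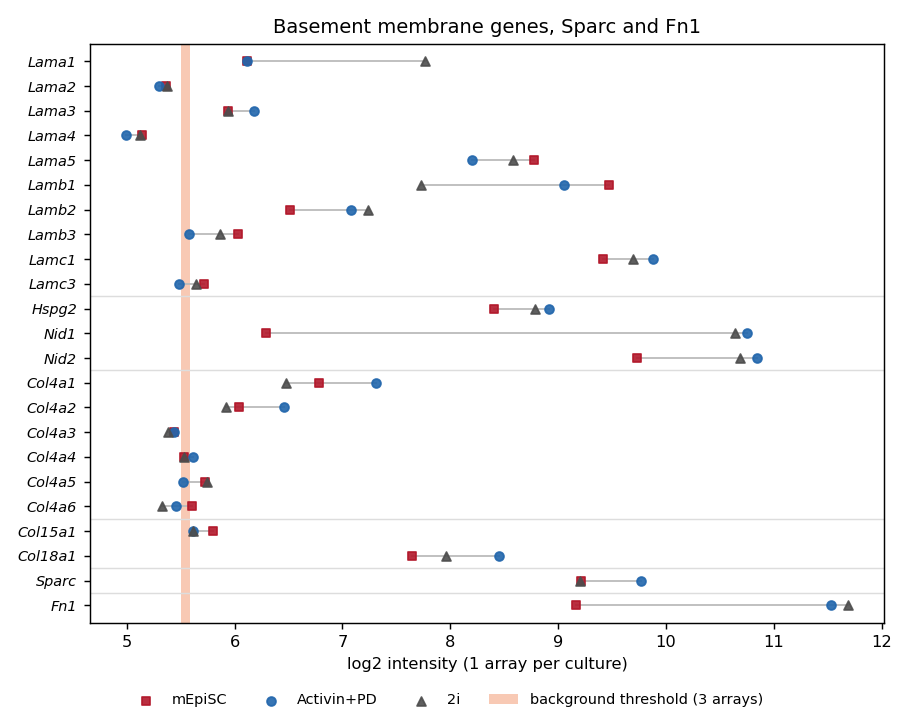
Log2 intensity of laminin chains, nidogens and perlecan, collagens IV, XV and XVIII, Sparc and Fn1 on the mEpiSC (square), Activin+PD (circle) and 2i (triangle) arrays, with 1 array per culture and the range of the background thresholds shaded. Nid1 and Fn1 are far to the left on the mEpiSC array, Lama1 is to the right on the 2i array alone, and Lamb1 is to the left on the 2i array.

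The collagens of fibrils and of tissues other than basement membrane differed little. Of 10 fibrillar collagens compared, the group of structural collagens of connective tissue, all were within 2-fold in all 3 comparisons, and the widest difference was 0.54 for Col1a1, mEpiSC minus 2i. Col1a1, the main chain of collagen I, read 6.90 in mEpiSC, 6.47 in Activin+PD and 6.37 in 2i. Its partner Col1a2 read 6.08, 5.65 and 6.01, and Col3a1 lay between 5.66 and 5.82. Among the fibril-associated collagens Col9a2, a chain of cartilage collagen IX, was the 1 well above background, at 7.36 in mEpiSC, 8.09 in Activin+PD and 7.76 in 2i. Of the 33 collagens whose highest array was above background, 24 exceeded it there by less than 2-fold, so a difference of a few-fold below that level could not be seen for them.

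To show the sequence at the starts of members that the results turn on, the 250 bases before the annotated start are printed from RefSeq on build GRCm38.p6, each in the direction of its gene. Of 89 members, 64 had a promoter window in that table, which spans 250 bases before and 50 bases after a start. Capitals mark matches, on either strand, to 4 short motifs: GGGCGG (the GC box bound by Sp1-type factors), CAGAC (a core that SMAD proteins bind), CTTTGA (a core of TCF/LEF sites) and TGANTCA (AP-1 sites). The Nid1 sequence (chr13:13437352-13437601, plus strand) stands for the member furthest below both mESC cultures in mEpiSC, Lamb1 (chr12:31265043-31265292, plus strand) for the laminin chain lower in 2i, and Itga5 (chr15:103366792-103367041, minus strand) for the member at least 2-fold higher in Activin+PD than in either other culture.
Nid1: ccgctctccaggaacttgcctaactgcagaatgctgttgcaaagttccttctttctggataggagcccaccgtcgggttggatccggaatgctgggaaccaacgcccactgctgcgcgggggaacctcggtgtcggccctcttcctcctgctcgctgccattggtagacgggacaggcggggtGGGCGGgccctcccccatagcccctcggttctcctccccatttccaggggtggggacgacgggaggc
Lamb1: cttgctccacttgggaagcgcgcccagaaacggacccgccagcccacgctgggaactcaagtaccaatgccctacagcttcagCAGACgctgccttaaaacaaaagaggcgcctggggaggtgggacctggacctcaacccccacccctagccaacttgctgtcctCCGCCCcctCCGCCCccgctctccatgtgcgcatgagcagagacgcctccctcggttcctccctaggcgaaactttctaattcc
Itga5: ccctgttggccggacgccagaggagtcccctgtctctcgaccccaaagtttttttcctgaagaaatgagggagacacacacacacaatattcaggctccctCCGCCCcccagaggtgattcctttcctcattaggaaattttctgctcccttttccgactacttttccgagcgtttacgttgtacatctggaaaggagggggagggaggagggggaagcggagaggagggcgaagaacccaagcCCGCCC
The next 3 belong to the integrin genes that were above background in mEpiSC alone and are shown because they shared that pattern, Itga1 (chr13:115101965-115102214, minus strand), Itga8 (chr2:12301945-12302194, minus strand) and Itgb8 (chr12:119238277-119238526, minus strand).
Itga1: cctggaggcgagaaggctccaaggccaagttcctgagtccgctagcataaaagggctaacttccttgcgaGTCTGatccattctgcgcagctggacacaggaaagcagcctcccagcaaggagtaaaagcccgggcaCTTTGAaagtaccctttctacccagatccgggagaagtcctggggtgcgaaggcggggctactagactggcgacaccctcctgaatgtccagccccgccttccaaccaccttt
Itga8: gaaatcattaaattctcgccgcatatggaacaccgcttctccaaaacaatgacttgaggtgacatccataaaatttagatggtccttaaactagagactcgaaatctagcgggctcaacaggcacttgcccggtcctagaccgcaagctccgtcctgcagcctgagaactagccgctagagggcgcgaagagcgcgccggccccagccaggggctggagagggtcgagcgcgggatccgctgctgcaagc
Itgb8: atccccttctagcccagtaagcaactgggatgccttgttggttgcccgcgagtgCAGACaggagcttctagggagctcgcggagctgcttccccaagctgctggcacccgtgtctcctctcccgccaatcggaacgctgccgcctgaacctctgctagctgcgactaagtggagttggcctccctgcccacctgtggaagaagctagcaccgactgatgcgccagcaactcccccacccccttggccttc
The last is the 78-base stretch that the windows of Col4a1 and Col4a2 share (chr8:11312777-11312854, plus strand, the direction of Col4a2).
Col4a1 and Col4a2: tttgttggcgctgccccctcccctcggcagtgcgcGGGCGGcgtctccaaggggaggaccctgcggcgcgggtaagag
A GC box was found in the windows of Nid1 (1 match), Lamb1 (2 matches) and Itga5 (2 matches), and in none of those of Itga1, Itga8 and Itgb8. The SMAD core was found once in that of Lamb1, 2 times in that of Itga5 and once each in those of Itga1 and Itgb8. It was in neither that of Nid1 nor that of Itga8. Both matches of Itga5 lie after the start, in the part of the window that is not printed. The TCF/LEF core was found in that of Itga1 alone among these 6, and the AP-1 site in none of the 6. Itga3 and Itgb1, also at least 2-fold higher in mEpiSC than in 2i, are not printed. A GC box was in the Itgb1 window (1 match) and in both Itga3 windows (1 and 3 matches). An AP-1 site was in 1 Itga3 window. Of the 70 windows of members, 54.3% held a GC box, 58.6% a SMAD core, 20% a TCF/LEF core and 5.71% an AP-1 site. Of the 32851 windows of all genes, 35.7% held a GC box, 49.6% a SMAD core, 16% a TCF/LEF core and 7.81% an AP-1 site. The members whose windows are described were picked for their levels, whereas the 70 windows are those of members taken by symbol. A match to so few letters describes the sequence only.

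The integrin genes are given by ligand. For the laminin-binding alpha subunits, Itga3 was highest in mEpiSC and Itga6 in Activin+PD. Itga3, whose product pairs with beta1 and binds laminins with an alpha3 or alpha5 chain, read 9.01 in mEpiSC, 8.05 in Activin+PD and 7.45 in 2i. It was 2.96-fold higher in mEpiSC than in 2i and just within 2-fold of Activin+PD, at 0.96. Itga6, the alpha6 subunit of laminin receptors on epithelial and pluripotent cells, read 8.68, 9.27 and 8.67 in mEpiSC, Activin+PD and 2i. It was level in mEpiSC and 2i and 0.60 higher in Activin+PD than in 2i. Itga7, known from muscle, lay between 5.81 and 5.84 on all arrays.

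Among the alpha subunits whose integrins recognise the RGD sequence of fibronectin and related proteins, Itga5 set the Activin+PD culture apart. Itga5 encodes the alpha5 subunit of the main fibronectin receptor. It read 7.96 in mEpiSC, 9.16 in Activin+PD and 7.48 in 2i. It was 3.21-fold higher in Activin+PD than in 2i, rank 30 from the top of 13059 genes above background on both arrays, and 2.29-fold lower in mEpiSC than in Activin+PD. In mEpiSC it stood 0.48 above 2i. The levels of its ligand gene Fn1 were close in Activin+PD and 2i, so receptor and ligand did not share an order of cultures.

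Itga8, whose integrin with beta1 binds nephronectin and fibronectin, read 7.00 in mEpiSC and was not above background in Activin+PD (5.37) or 2i (5.27). It was higher in mEpiSC by at least 2.82-fold than in Activin+PD and by at least 2.66-fold than in 2i. Itgav, the alphav subunit that pairs with several beta subunits, was at 8.53 in mEpiSC, 9.08 in Activin+PD and 9.03 in 2i, and all its differences were within 2-fold. A second Itgav probe set was below background on all arrays. Itga2b, known from platelets, lay between 5.67 and 5.88.

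Itga1, whose integrin with beta1 binds collagen IV and laminin, was the collagen receptor subunit that differed. It read 7.14 in mEpiSC and was not above background in Activin+PD (5.34) or 2i (5.54). The difference was at least 1.64 against Activin+PD and at least 1.55 against 2i, or 3.11-fold and 2.93-fold. Itga2 lay between 5.33 and 5.63, close to background, and Itga11 was below background on all 3. Itga9, which encodes a receptor for tenascin and other matrix proteins, was highest in Activin+PD, with 6.25 in mEpiSC, 7.21 in Activin+PD and 6.40 in 2i. Its differences, -0.96 in mEpiSC minus Activin+PD and 0.80 in Activin+PD minus 2i, were within 2-fold. The alpha subunits of white blood cells (Itgad, Itgae, Itgam and Itgax) and Itga4 were below background on all arrays, and Itgal lay between 5.38 and 5.62, near background.

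Of the beta subunits, Itgb1 and Itgb8 were higher in mEpiSC and Itgb3 was lower there than in Activin+PD. Itgb1, the partner of most matrix-binding alpha subunits including those of Itga1, Itga3, Itga5, Itga6 and Itga8, read 10.19 in mEpiSC, 9.33 in Activin+PD and 8.98 in 2i. It was 2.30-fold higher in mEpiSC than in 2i and 1.81-fold higher than in Activin+PD. Itgb8 encodes the beta8 subunit, whose integrin with alphav binds and activates latent TGF-beta. It read 6.47 in mEpiSC against 5.28 in both Activin+PD and 2i, neither above background. The bound on its difference was 1.85-fold against 2i and 1.96-fold against Activin+PD, so a 2-fold difference rests on readings below background.

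Itgb3, a further partner of alphav, ran the other way, at 5.73 in mEpiSC, 6.84 in Activin+PD and 6.20 in 2i. It was 2.16-fold lower in mEpiSC than in Activin+PD. Itgb5, also a partner of alphav, read 9.30, 8.62 and 9.05 in mEpiSC, Activin+PD and 2i, a difference of 0.68 for mEpiSC minus Activin+PD. Itgb4, the laminin-binding partner of alpha6 in hemidesmosomes, and Itgb7 and Itgb2, known from white blood cells, lay between 5.85 and 6.28, and Itgb6 and Itgb2l were below background. The genes with an integrin-like name did not differ by 2-fold in any comparison: Itgb1bp1, a protein that binds the beta1 tail, lay between 6.75 and 7.03, Itgb1bp2 between 6.25 and 6.46 and Itgb3bp, a centromere protein, between 6.77 and 7.12.

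**Figure D3:**
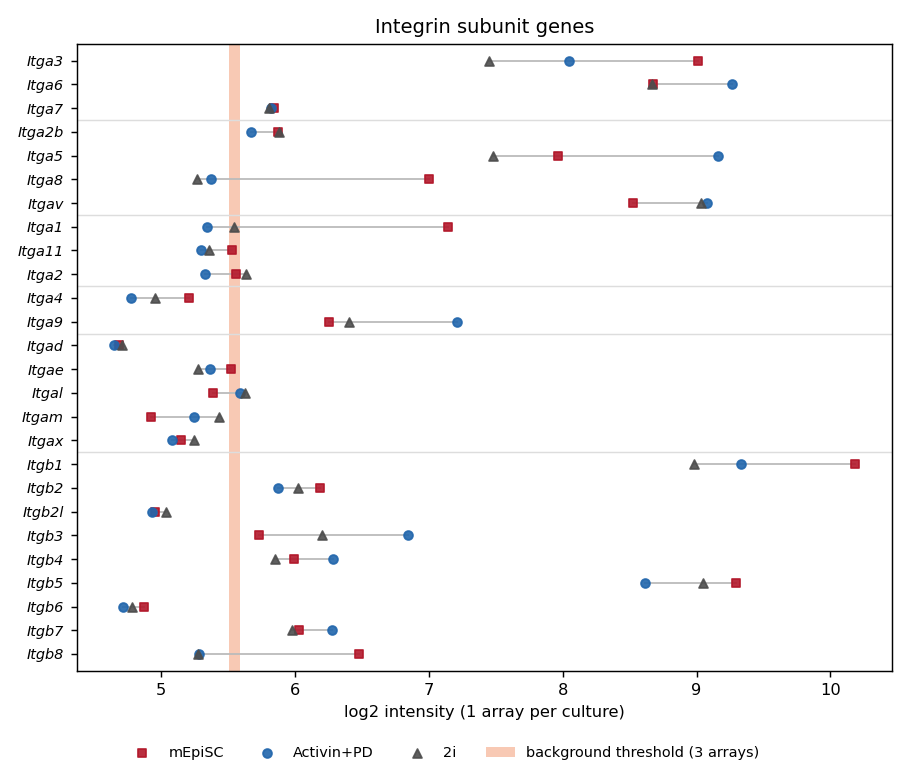
Log2 intensity of the 26 integrin subunit genes on the mEpiSC (square), Activin+PD (circle) and 2i (triangle) arrays, in blocks of laminin-binding, RGD-binding, collagen-binding, alpha4 and alpha9, white blood cell and beta subunits. Itga1, Itga8 and Itgb8 stand to the right of the shaded background on the mEpiSC array alone, and for Itga5 the Activin+PD point lies to the right of those of mEpiSC and 2i.

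Genes that make, link, cut or bind the matrix were followed in 6 further lists, which hold 143 genes of the array, all but Itgb1bp1 outside the members. In mEpiSC minus 2i, 20 of the 123 compared were at least 2-fold higher and 13 lower, in mEpiSC minus Activin+PD 14 of 124 were higher and 18 lower, and in Activin+PD minus 2i 7 of 116 were higher and 1 lower. Genes 2-fold or more apart in either direction were 26.8% in mEpiSC minus 2i, against 9.48% of all genes compared. They were 25.8% against 8.96% in mEpiSC minus Activin+PD and 6.90% against 2.20% in Activin+PD minus 2i. The lists were chosen with earlier results of these data known, so their shares may reflect that choice. The shares over all genes, here and by direction above, also stand beside the counts of each list below.

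The other basement membrane proteins were mostly lower where they differed. In mEpiSC minus 2i 0 of 15 were higher and 5 lower, with a median of 0.02, and in mEpiSC minus Activin+PD 1 of 16 was higher and 5 lower, with a median of -0.46. Tgfbi, a secreted protein that binds collagen and integrins, read 6.11 in mEpiSC, 8.99 in Activin+PD and 8.05 in 2i. Egfl6, a basement membrane protein with EGF repeats, read 5.82, 7.83 and 7.28 in mEpiSC, Activin+PD and 2i. Smoc1, a calcium-binding relative of Sparc, was lower in mEpiSC too, with differences of -1.96 from 2i and -1.90 from Activin+PD. All 3 were lowest in mEpiSC, as Nid1 and Fn1 were. Ntn1, the guidance protein netrin-1, was at -1.72 for mEpiSC minus 2i and also lower in Activin+PD than in 2i, at -1.03. Npnt encodes nephronectin, the ligand of the integrin of Itga8. It read 6.31 in mEpiSC, 7.60 in Activin+PD and 6.27 in 2i, so the ligand was highest in Activin+PD and the receptor subunit in mEpiSC. Frem2, a protein of the embryonic basement membrane, was the 1 higher in mEpiSC than in Activin+PD, at 1.09.

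Matrix receptors other than integrins had 5 members higher and 2 lower of 17 in mEpiSC minus 2i, a median of 0.72. The discoidin domain receptors, kinases that bind collagen, were highest in different cultures. Ddr1 read 8.85 in mEpiSC, 7.18 in Activin+PD and 6.67 in 2i, whereas Ddr2 read 4.86, below background, in mEpiSC, 9.75 in Activin+PD and 5.61 in 2i. Ddr2 was 17.6-fold higher in Activin+PD than in 2i, the largest such difference of all genes compared, and lower in mEpiSC than in Activin+PD by at least 4.18. Its 2i reading was only just above the 2i background of 5.59, so the size of that fold is uncertain. Ddr1 was 4.52-fold higher in mEpiSC than in 2i and 3.19-fold higher than in Activin+PD. Sdc2, a cell surface heparan sulfate proteoglycan, was higher in mEpiSC by 1.74 against Activin+PD and 1.65 against 2i, and Gpc3, a glypican, by 1.58 against 2i. The relative Sdc4, which acts with integrins at focal adhesions, was at -1.19 for mEpiSC minus 2i. Cd47, a receptor for thrombospondin, read 6.81 in mEpiSC, 8.58 in Activin+PD and 8.09 in 2i. Gpc4, another glypican, was higher in Activin+PD than in 2i by 1.53.

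In the list of integrin adhesion complex genes, which link integrins to actin, 4 of 25 were higher and 1 lower in mEpiSC minus 2i, with a median of -0.01. Zyx encodes zyxin, a protein of mature focal adhesions, and read 9.13 in mEpiSC, 6.60 in Activin+PD and 6.69 in 2i. Vcl, which encodes vinculin, read 10.65, 9.62 and 9.42 in mEpiSC, Activin+PD and 2i. Both were highest in mEpiSC, as Itgb1 was. Parva, the actin-binding protein alpha-parvin, was higher in both Activin A cultures, at 7.77 in mEpiSC and 7.64 in Activin+PD against 6.49 in 2i, which is the order of Lamb1. Tns3, a tensin, was the 1 lower in mEpiSC, at -1.40 against either mESC culture. Bcar1, an adapter protein of adhesions, was at 1.11 for mEpiSC minus 2i, and Tes, another actin-associated protein of adhesions, was at 1.02 for mEpiSC minus Activin+PD.

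Among other matrix glycoproteins and proteoglycans, 3 of 22 were higher and 1 lower in mEpiSC minus 2i. Thbs1, which encodes thrombospondin-1, read 8.87 in mEpiSC, 6.20 in Activin+PD and 5.35 in 2i, not above background, and was higher in mEpiSC than in 2i by at least 3.29. Ccn1, a secreted matricellular ligand of integrins, read 10.68, 8.27 and 7.55 in mEpiSC, Activin+PD and 2i. Its relative Ccn2 read 6.62, 8.65 and 7.15 and was instead highest in Activin+PD. Thbs3 was higher in mEpiSC than in 2i by 1.35. Mfge8, a secreted ligand of alphav integrins, was lower in mEpiSC, with differences of -1.67 from 2i and -2.04 from Activin+PD.

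Collagen processing genes had 3 of 23 higher and 1 lower in mEpiSC minus 2i, and 3 higher and 5 lower in mEpiSC minus Activin+PD. P4ha3, a subunit of the enzyme that hydroxylates prolines of collagen, set Activin+PD apart, with 5.55 in mEpiSC, not above background, 7.78 in Activin+PD and 5.79 in 2i. Pcolce2, which enhances the trimming of procollagen, read 7.58 in mEpiSC, 8.84 in Activin+PD and 7.35 in 2i. Both were highest in Activin+PD, as Col4a1 and Col4a2 were by less. P3h2, a prolyl 3-hydroxylase that acts on collagen IV, read 7.45 in mEpiSC and was not above background in the mESC cultures, a difference of at least 1.95 against Activin+PD and at least 1.86 against 2i. Pxdn, peroxidasin, which crosslinks collagen IV, was higher in mEpiSC by 1.41 against Activin+PD and 1.86 against 2i, and Plod2, a collagen lysyl hydroxylase, by 1.09 and 1.28. Crtap, a partner of prolyl 3-hydroxylase, was at -1.27 and -1.42. P3h2 and Pxdn thus stood 2-fold or more apart in comparisons in which the collagen IV chains did not. The genes named here were picked as at least 2-fold apart, so that contrast follows in part from the choice. Of the 23 genes compared, 19 were within 2-fold in mEpiSC minus 2i and 15 in mEpiSC minus Activin+PD. The collagen IV chains other than those of Col4a1 and Col4a2 were near or below background.

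Matrix proteases and their inhibitors had 5 of 21 higher and 3 lower in mEpiSC minus 2i, and 0 of 18 on either side in Activin+PD minus 2i. Mmp14, a membrane-bound protease, was higher in mEpiSC than in 2i by 1.85, Adamts9, a secreted protease, by 1.60 and Mmp2, which cuts collagen IV, by 1.52. Adamts1 was above background in mEpiSC alone, by at least 1.35 against Activin+PD. The inhibitor gene Timp1 read 6.06 in mEpiSC, 7.30 in Activin+PD and 7.86 in 2i, and Adam10 and Reck were at -1.19 and -1.08 for mEpiSC minus 2i. Mmp11 was at -1.44 for mEpiSC minus Activin+PD.

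**Figure D4:**
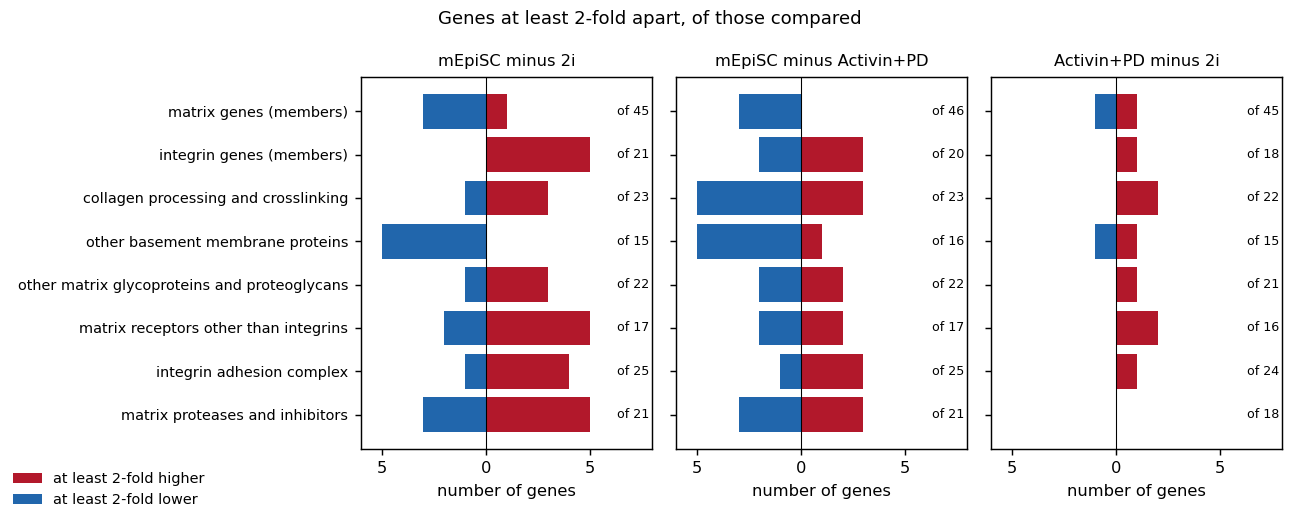
Number of genes at least 2-fold higher (right of 0) and lower (left of 0) in each comparison, for the matrix and integrin genes and for 6 lists of related genes, with the number compared at the right of each bar. In mEpiSC minus 2i integrin genes lie to the right alone (5 of 21) and other basement membrane proteins to the left alone (5 of 15). Of these integrin genes, Itga1, Itga8 and Itgb8 were above background in mEpiSC alone and could only lie to the right.

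Markers of the states and of other cell types were read beside these results. The 6 naive markers (Zfp42, Tfcp2l1, Esrrb, Klf4, Nr0b1 and Tbx3) had a summed linear intensity of 340 in mEpiSC, 7082 in Activin+PD and 6258 in 2i, and 6 primed markers 6330, 1229 and 1297. Of the primed markers 4 were at least 2-fold higher in mEpiSC than in 2i and 4 than in Activin+PD, and 2 were higher by that measure in Activin+PD than in 2i, Otx2 by at least 2.23 and Fgf5 by 1.48. For Activin+PD minus 2i, Pou3f1 and Sox3 were at 0.24 and 0.32, whereas Dnmt3b and Lef1 were at -0.60 and -0.70. The sums of linear intensity weigh the brightest genes most. The 10 fibroblast markers summed to 635 in mEpiSC, 530 in Activin+PD and 486 in 2i, and 5 of them (Dcn, Lum, Postn, Fap and S100a4) were below background on every array, while Mmp2 accounted for the 1 that was 2-fold apart. The sum of 10 markers of parietal and primitive endoderm, cells that secrete much basement membrane, was 929 in mEpiSC, 634 in Activin+PD and 619 in 2i. In that list Gata6 read 7.09 in mEpiSC and 5.26 in both mESC cultures and Foxa2 read 8.01, 6.35 and 6.25, whereas Sox7 was below background on all arrays and Gata4 lay between 6.56 and 6.77. Of 4 blood markers on the array, Ptprc and Cd48 were below background throughout, and the sums were 194 in mEpiSC, 297 in Activin+PD and 241 in 2i. Laptm5 read 5.56 in mEpiSC, not above background, 7.47 in Activin+PD and 6.90 in 2i, and was lower in mEpiSC by at least 1.90 than in Activin+PD and by at least 1.33 than in 2i, and Coro1a lay between 6.05 and 6.47. The part of such cells in the results on matrix and integrin genes was not tested. In RNA from a whole culture, fewer cells of a type and less RNA per cell cannot be told apart.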

How the data were processed

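The deposited table held 1 intensity per probe set and array for 33793 probe sets. Per the submitters' processing notes, RMA was used, which corrects background, quantile-normalises arrays and summarises probes, and the series' design text names GeneSpring GX 11.5. From the values the deposited intensities were on a linear scale (lowest value about 19 on every array), so log2 was taken first. A constant added before deposit cannot be told from the values and would shrink the folds of dim genes. The genome build and probe annotation used by the authors are not given in the sources used here.

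Of the probe sets, 23521 had 1 gene symbol in the platform annotation, 1814 several and 8458 were not listed, and no gene was named from several. Symbols were updated through Entrez identifiers for 23328. A gene with several probe sets was represented by the one with the highest mean over the arrays. Background, comparison and the 2-fold threshold were as given with the results. Ranks used genes above background on both arrays. No p-value, standard error or test was computed, since each group had 1 array, and that number limits the precision. The comparison steps were tested on simulated data, with differences well above 2-fold planted in bright genes of the mEpiSC array alone. That test did not cover dim genes or differences near 2-fold.

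The members, the lists and the roles were chosen with earlier results of these data known. Named members were those at least 2-fold apart, 5 markers, the 5 matrix and 5 integrin genes with the highest mean level, and the laminin, collagen IV and integrin beta genes above background; from each related list, the 3 largest differences in each direction among those at least 2-fold apart. Further members and list genes were named after their values were seen. Promoter windows and gene names came from RefSeq (GRCm38.p6). Alternatives are listed at the end. Python 3.11.15 with pandas 2.3.3 and numpy 2.4.6 was used.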

Additional observations from a re-analysis of the deposited data

How the results depend on the processing

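The 18 counts and medians of matrix and integrin genes were recomputed under 7 alternatives: values below background raised to it, the 99th percentile as background, no filter on dim genes, the mean of a gene's probe sets, 16 subtracted from every intensity, median centring, and quantile normalisation. Every count stayed within 1.5 times of that reported under all 7, and the 12 members that differed at least 2-fold kept their direction in every comparison that called them. With values below background raised to it, integrin genes higher in mEpiSC numbered 4 against 2i and 2 against Activin+PD, since Itgb8 dropped out. With 16 subtracted, 4 were higher and 3 lower in mEpiSC minus Activin+PD. With the 99th percentile as background, 20 matrix genes were compared and their median was 0.1239 in Activin+PD minus 2i, where 0.0015 was reported, and -0.4449 in mEpiSC minus Activin+PD, where 0.0487 was reported. That second median thus had the opposite sign over the brighter matrix genes. Integrin medians moved upward under the same setting, to 0.4842 in mEpiSC minus 2i, 0.3516 in mEpiSC minus Activin+PD and 0.4761 in Activin+PD minus 2i, where 0.0533, 0.0645 and 0.0282 were reported. The matrix median for mEpiSC minus 2i was -0.0109 after median centring and -0.0026 after quantile normalisation, and that for Activin+PD minus 2i was -0.0484 without the filter and -0.0329 with values raised to background. The integrin median for Activin+PD minus 2i was -0.0573 without the filter. The size and sign of the list medians therefore depend on which dim genes enter, and the sign of the matrix median for mEpiSC minus 2i on the scaling. With the probe sets averaged, Nid1 was lower in mEpiSC still, with differences of -3.97 from 2i and -4.02 from Activin+PD. Over all genes, with 16 subtracted, 295 in place of 193 passed 2-fold upward in Activin+PD minus 2i. No paired analysis was possible because each group had 1 array. Signal over background limits what can be said of 22 members, which were below it on every array.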
